A study of Mus musculus with 11 samples.

Results

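The translation initiation and elongation factor genes were described across 3 groups of mouse CD8 T cells. The genes were taken by name: rows named Eif followed by a digit from 1 to 6, rows starting with Eef1, and Eef2, leaving out the eIF2 kinases (Eif2ak) and rows with -ps in the name. The rule gave 59 of the 52636 rows of the count table, and 55 of the 59 were among the 13735 rows with enough counts to be tested. Eef1a2 and Eif4e1b had 0 counts in all 11 libraries. With 3 counts taken as the limit, this allows at most 0.130 to 0.166 counts per 1 M of a library's raw total. Levels below are in CPM, a gene's counts per 1 M of its library's TMM-adjusted total. Eif4ebp3 (at most 4 counts in a library) and Eif2c5 (a long noncoding RNA whose name fits the rule, at most 3 counts) were too low to test.

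The cells came from the spleens of C57BL/6 mice and were analysed by RNA sequencing. The CD45RBhi NP396+ memory group (4 libraries) and the CD45RBlo NP396+ memory group (4 libraries) were CD8 T cells sorted at week 6, on days 42 to 45 after mice received 200000 pfu of LCMV Armstrong intraperitoneally, a strain that causes an acute infection which is then cleared. They were gated with a Kb NP396 tetramer, which marks T cells specific for a peptide of the viral nucleoprotein, and split by CD45RB, a splice form of the CD45 phosphatase. The naive group (3 libraries) was CD44lo CD8 T cells; its labels repeat the infection text and carry a time entry of 6 to 8 weeks whose meaning is not stated, so whether ages were matched is not known. No group carried a transgene or engineered allele according to the labels. The labels do not say whether libraries of a group came from separate mice or pools, so p-values measure only the spread between these libraries, which may be technical.

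Initiation factors bring the small ribosomal subunit and the initiator tRNA to the start codon of an mRNA. The eIF4 proteins bind the cap and unwind the leader, eIF2 delivers the initiator tRNA and is recharged by eIF2B, eIF3 holds the complex together, and eIF5B and eIF6 act around the joining of the large subunit. In elongation eEF1A delivers aminoacyl-tRNAs and is recharged by the eEF1B complex, eEF2 moves the ribosome along, and eIF5A helps at peptide bonds that form slowly. Many of these mRNAs, together with those of ribosomal proteins, carry a pyrimidine tract at the 5′ end through which mTORC1 controls their translation, and naive T cells increase protein synthesis on activation.

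Promoter stretches are shown for genes whose level differed between the memory groups in the fit that paired libraries by number (below), because they let a reader see how unlike the starts of these genes are. The RefSeq promoter table for GRCm38.p6 held 45 of the 59 genes, and 6 of the 8 genes that differed; 5 of the 6 are printed, the exception being Eif5a, which has 6 listed starts. Each stretch has 70 bases before and 30 bases after the listed start, which need not be the exact start site, and capitals mark CCGGAAG (a core of ETS factor sites), TATAA (the TATA box) or GGGCGG (the GC box), on either strand. Eef1a1 lies at chr9:78481695-78481794 on the minus strand, Eef1b2 at chr1:63176761-63176860, Eef2 at chr10:81176561-81176660, Eif3b at chr5:140419235-140419334 and Eif4enif1 (first of 4 listed starts) at chr11:3202283-3202382, all on the plus strand except Eef1a1.
Eef1a1: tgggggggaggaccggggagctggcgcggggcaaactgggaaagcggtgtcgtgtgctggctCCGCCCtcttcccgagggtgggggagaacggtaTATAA
Eef1b2: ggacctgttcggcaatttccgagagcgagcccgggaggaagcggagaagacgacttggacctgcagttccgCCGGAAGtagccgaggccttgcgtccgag
Eef2: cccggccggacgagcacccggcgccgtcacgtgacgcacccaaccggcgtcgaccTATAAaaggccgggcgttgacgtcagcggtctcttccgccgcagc
Eif3b: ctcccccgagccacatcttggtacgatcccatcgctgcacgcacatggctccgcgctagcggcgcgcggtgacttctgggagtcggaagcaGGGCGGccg
Eif4enif1: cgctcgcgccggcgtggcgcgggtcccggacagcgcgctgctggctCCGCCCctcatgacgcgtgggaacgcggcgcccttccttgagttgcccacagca
The TATAA letters stood before the listed start in Eef2 and after it in Eef1a1, while Eef1b2 held the ETS core. Over 300 bases (250 before and 50 after the start), CCGGAAG was found in 16 of the 45 genes (35.6%). The share was 21.3% of the 9093 genes tested that had a listed promoter and 9.93% of all 27025 genes with one. A gene counted if any of its listed starts matched, and the 45 include Eef1a2 and Eif2c5, which were not tested. GGGCGG was found in 34 of the 45 (75.6%), against 68.5% and 38.2%, and TATAA in 7 of the 45 (15.6%), against 15.5% and 28.0%. These matches are descriptions of letters and not of bound sites.

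Total counts were 19.9 to 23.2 M in CD45RBhi, 18.5 to 22.2 M in CD45RBlo and 18.02 to 20.7 M in naive libraries. Cd44, a sort marker, averaged 256 CPM in CD45RBhi, 220 CPM in CD45RBlo and 14.6 CPM in naive libraries, and all 11 CD8 T cell identity genes on the list had counts in each group. Markers of other cells differed between memory and naive libraries. Rises and falls counted below are edgeR calls at adjusted p below 0.05. Over all rows tested the background was 22.3% higher and 19.1% lower in CD45RBhi against naive. It was 22.4% and 19.8% in CD45RBlo against naive. Summed B cell markers (16 genes) were at 220 to 504 CPM in CD45RBhi, 203 to 450 CPM in CD45RBlo and 1243 to 1422 CPM in naive libraries, and summed erythroid and platelet markers (10 genes) at 1.52 to 3.35, 3.79 to 30.1 and 252 to 543 CPM. Summed natural killer cell markers (9 genes) went the other way, at 4104 to 4388, 4168 to 4608 and 889 to 917 CPM. That sum was mostly Nkg7, at 3669 to 4098, 3840 to 4179 and 838 to 874 CPM. Of the 8 natural killer cell markers tested 6 rose and 0 fell in each memory group, while Ncr1 had at most 0.100 CPM in any library. Summed dendritic cell markers (8 genes, of which 3 were at 0 in every CD45RBhi library, 2 in every CD45RBlo library and 0 in the naive group) were at 87.1 to 248, 67.4 to 169 and 3.61 to 5.85 CPM. That sum was mostly Itgax, at 78.8 to 235 CPM in CD45RBhi, 57.4 to 154 CPM in CD45RBlo and 0.365 to 1.14 CPM in naive libraries; of the 3 dendritic cell markers tested Itgax and Xcr1 rose, and Zbtb46 did not pass (-0.06 and -0.13). The B cell sum was mostly Ighm, at 168 to 480, 167 to 414 and 1074 to 1219 CPM in CD45RBhi, CD45RBlo and naive libraries. Of the 14 B cell markers tested 12 fell in CD45RBhi and 13 in CD45RBlo, while Cd22 rose in both. Of the B cell markers 1 was at 0 in each memory group. Of the erythroid and platelet markers 2, 1 and 0 were at 0 in CD45RBhi, CD45RBlo and naive libraries. Summed myeloid markers (15 genes) were at 41.3 to 50.6, 36.5 to 53.6 and 50.1 to 78.2 CPM in the same order, but its members went opposite ways: of the 10 tested 7 fell and 2 rose in each memory group (median log2 fold changes -3.71 and -3.25). Cd68 rose, at 27.2 to 38.6, 22.7 to 29.9 and 2.75 to 4.56 CPM, while Lyz2 fell, at 0.0497 to 0.941, 0.145 to 1.98 and 11.3 to 23.2 CPM. Summed CD4 and regulatory T cell markers (7 genes) were at 26.6 to 40.8, 29.5 to 39.95 and 7.67 to 8.75 CPM in that order. Of the 6 tested 3 rose and 1 fell in each memory group. Il2ra was at 11.7 to 24.3, 12.2 to 18.5 and 0.518 to 0.958 CPM. Foxp3 had at most 0.0484 CPM in memory libraries and 0.787 to 1.55 CPM in naive ones. Cd4 had at most 0.443 CPM in any library. The part of these cells in the memory-naive differences below was not tested, and in bulk RNA fewer cells of a type and less RNA per cell cannot be told apart.

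The 59 genes took 1.35 ± 0.0444% of all counts in CD45RBhi, 1.27 ± 0.0288% in CD45RBlo and 1.66 ± 0.0477% in naive libraries (SD, n = 4, 4 and 3). The 7 Eef genes alone took 0.447 ± 0.0383%, 0.388 ± 0.0165% and 0.666 ± 0.0406%, and the 14 Eif3 genes 0.247 ± 0.00122%, 0.226 ± 0.00606% and 0.268 ± 0.00906%. For each of these sums the naive libraries were all above both memory groups. The shares are of raw totals, without the TMM scaling behind CPM. TMM factors were 1.06 to 1.09 in naive and 0.953 to 0.997 in memory libraries. With TMM scaling the median log2 fold change of the 14 Eif3 genes in CD45RBhi against naive was -0.01, with 6 positive. With library size only that median was -0.16. Per length of exon, in RPKM, Eef1a1 was the highest in level, at 985 ± 98.2 in CD45RBhi, 857 ± 43.7 in CD45RBlo and 1483 ± 127 in naive libraries. Eef2 followed at 464 ± 61.9, 401 ± 32.7 and 534 ± 40.1 RPKM, and Eif5a at 363 ± 32.5, 311 ± 44.6 and 363 ± 10.97 RPKM. Next by mean RPKM over all libraries came Eif1 (194), Eif4g2 (163), Eif4a3 (131) and Eif3b (122), followed by Eif3h (109.7) and Eef1g (109.5), whose means differed by less than their spread. Eif3j2 (1.68), Eif5a2 (2.96), Eif2a (4.21) and Eif4ebp1 (4.63) were the lowest of those tested. The lengths were unions of all annotated exons, which overstates most transcripts and lowers their RPKM.

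**Figure D1:**
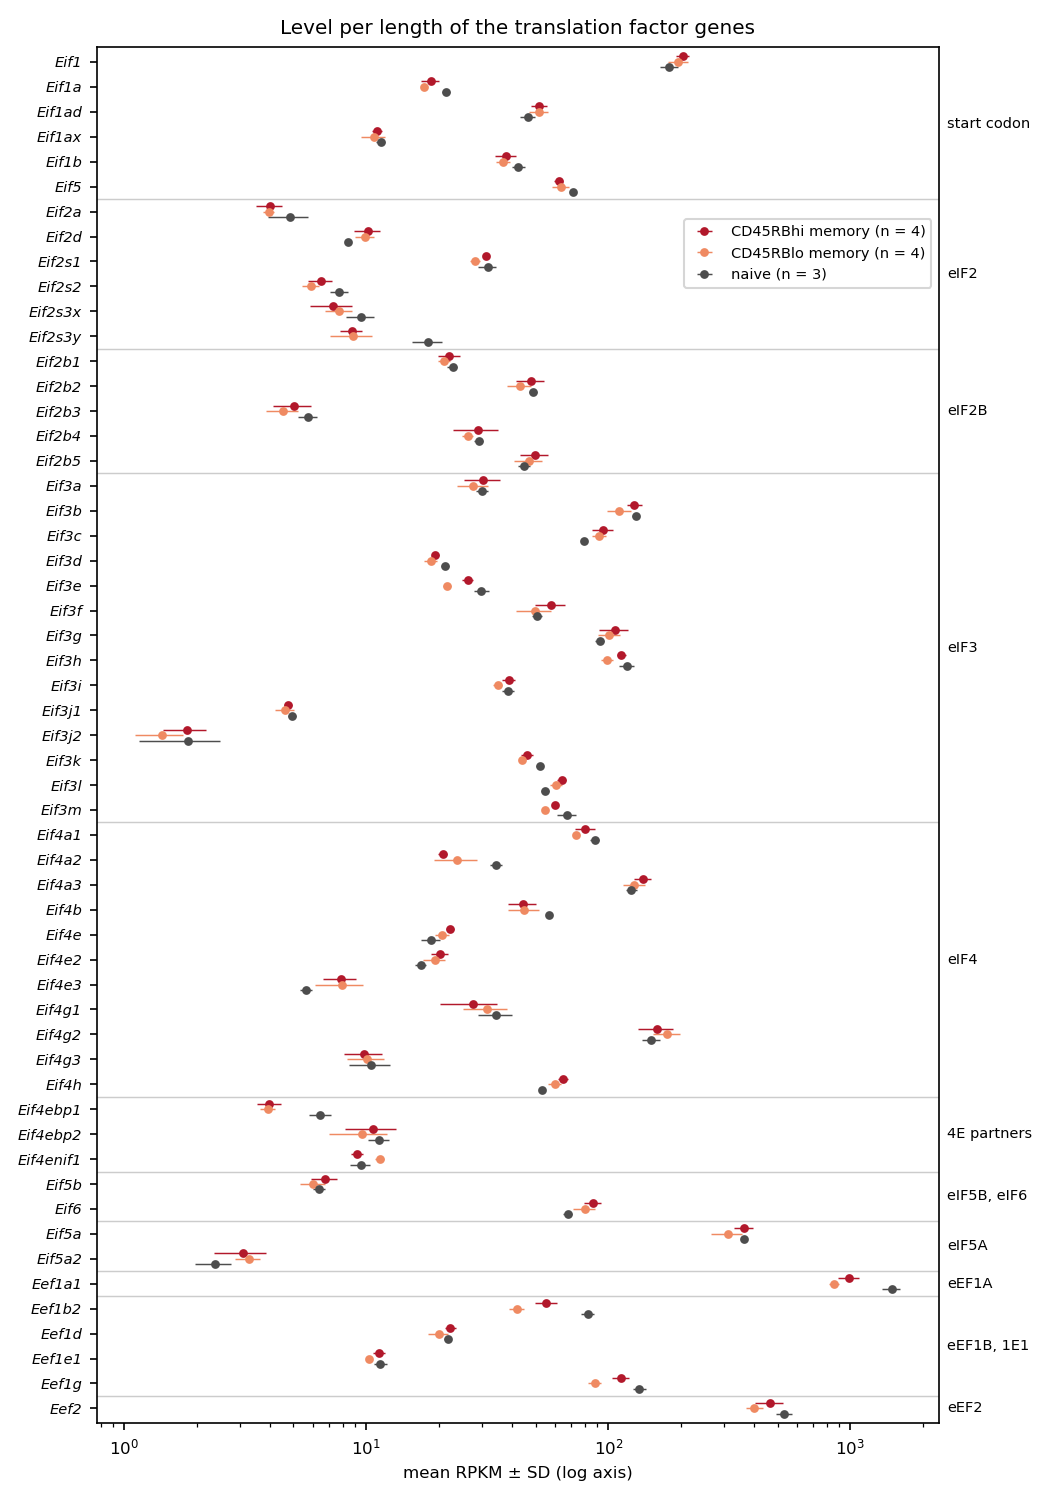
Mean level per exon length (RPKM, log axis) ± SD of the 55 genes tested, in CD45RBhi memory (n = 4), CD45RBlo memory (n = 4) and naive (n = 3) libraries, grouped by role from initiation at the top to elongation at the bottom. Eef1a1 stands at 985, 857 and 1483 RPKM, and Eif3j2 at 1.82, 1.43 and 1.83 RPKM.

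CD45RBhi memory cells were set against naive cells first. Of the 55 genes, 15 differed (adjusted p below 0.05, edgeR's quasi-likelihood test with Benjamini-Hochberg adjustment over all 13735 rows): 7 rose and 8 fell. The background was 41.5% of all rows called, 22.3% higher and 19.1% lower, so the members' share was below it. Their median log2 fold change was -0.04, against -0.01 for all rows tested. CD45RBlo memory cells against naive cells gave 17 calls, 2 higher and 15 lower, where the background was 42.2% called, 22.4% higher and 19.8% lower. Their median was -0.16, against -0.01. The 2 comparisons share the naive libraries, so their values are given side by side and no overlap is counted. Groups did not overlap for 8 genes higher and 12 lower in CD45RBhi against naive (background 24.2% and 23.3%), and for 7 higher and 19 lower in CD45RBlo against naive (25.2% and 24.3%). The 15 edgeR calls in CD45RBhi became 8 without CD45RBhi library 3 (background 37.4%) or naive library 3 (34%), and 9 without CD45RBhi library 4 (37.5%), naive library 1 (33.9%) or naive library 2 (33.2%). The 17 calls in CD45RBlo became 11 without naive library 1 (34.8%) or naive library 3 (34.3%).

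**Figure D2:**
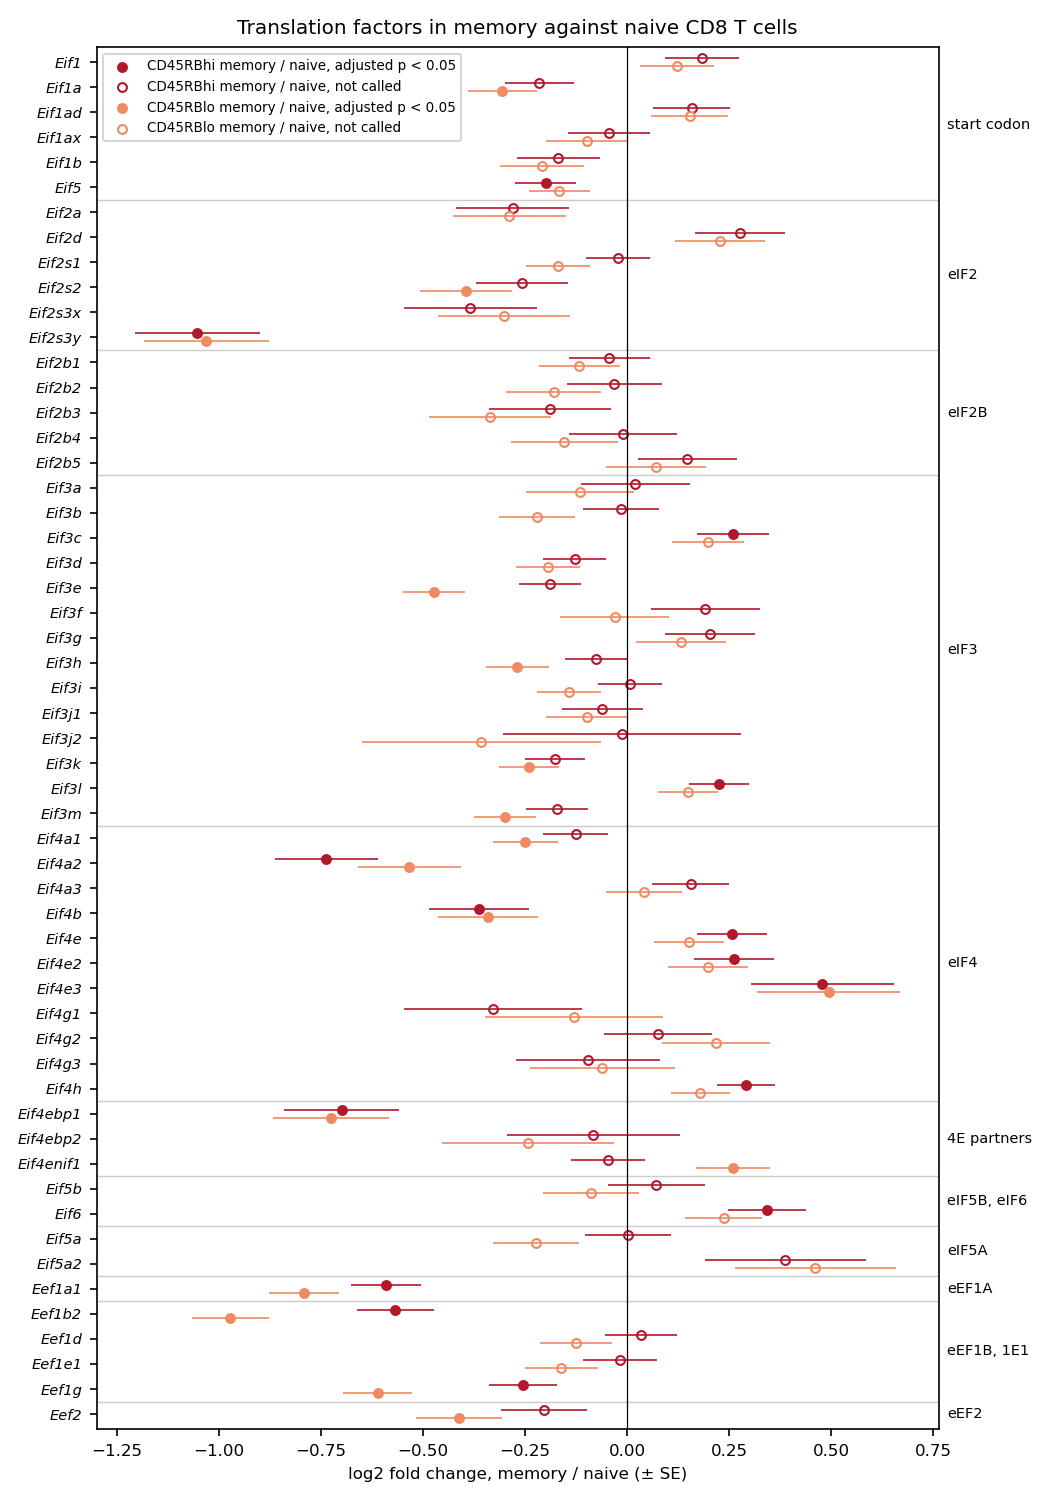
Log2 fold change ± SE of memory over naive for the 55 genes, with CD45RBhi memory in dark red above CD45RBlo memory in orange; filled points passed adjusted p below 0.05. Eif2s3y, Eif4a2, Eif4ebp1, Eef1a1 and Eef1b2 lie furthest to the left in CD45RBhi (-1.05 to -0.57), Eef1g (-0.61) lies among them in CD45RBlo, and Eif4e3 lies to the right at 0.48 and 0.49.

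Among the 6 Eef genes tested, 0 rose and 3 fell in CD45RBhi (background 22.3% higher and 19.1% lower). In CD45RBlo 0 rose and 4 fell (22.4% and 19.8%). Eef1a1, the main carrier of aminoacyl-tRNAs, was at 2727, 2181, 2334 and 2581 CPM in CD45RBhi libraries, 2294, 2044, 2122 and 2089 CPM in CD45RBlo libraries, and 4052, 3591 and 3449 CPM in naive libraries. Every naive library was above every memory library. It fell by 0.59 ± 0.0864 log2 units in CD45RBhi (SE, adjusted p = 0.000136) and by 0.79 ± 0.0863 in CD45RBlo (adjusted p = 1e-05). Eef1b2, the exchange factor of the eEF1B complex, was at 154, 124, 133 and 151 CPM in CD45RBhi, 116, 101, 109 and 99.3 CPM in CD45RBlo, and 219.5, 194 and 210.4 CPM in naive libraries. The 3 groups did not overlap. Its changes were -0.57 ± 0.0947 (adjusted p = 0.00038) and -0.97 ± 0.0948 (adjusted p = 3.52e-06). Eef1g, the structural subunit of that complex, was at 304, 271, 276 and 319 CPM in CD45RBhi, 238, 235, 207 and 235 CPM in CD45RBlo, and 374, 335 and 338 CPM in naive libraries, again with no overlap between the groups. It fell by 0.26 ± 0.0837 (adjusted p = 0.0269) and 0.61 ± 0.0835 (adjusted p = 6.96e-05).

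Eef2, the translocase, was at 1746, 1262, 1538 and 1627 CPM in CD45RBhi, 1486, 1228, 1305 and 1316 CPM in CD45RBlo, and 1898, 1795 and 1633 CPM in naive libraries. CD45RBlo lay wholly below naive, and CD45RBhi overlapped with it. The fall in CD45RBlo was -0.41 ± 0.105 (adjusted p = 0.00676), and the value for CD45RBhi was -0.20 ± 0.105 (adjusted p = 0.145). Eef1d, the other exchange subunit, had log2 changes of 0.04 and -0.12, and Eef1e1, a scaffold of the tRNA synthetase complex despite its name, -0.02 and -0.16, and none of these passed.

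**Figure D3:**
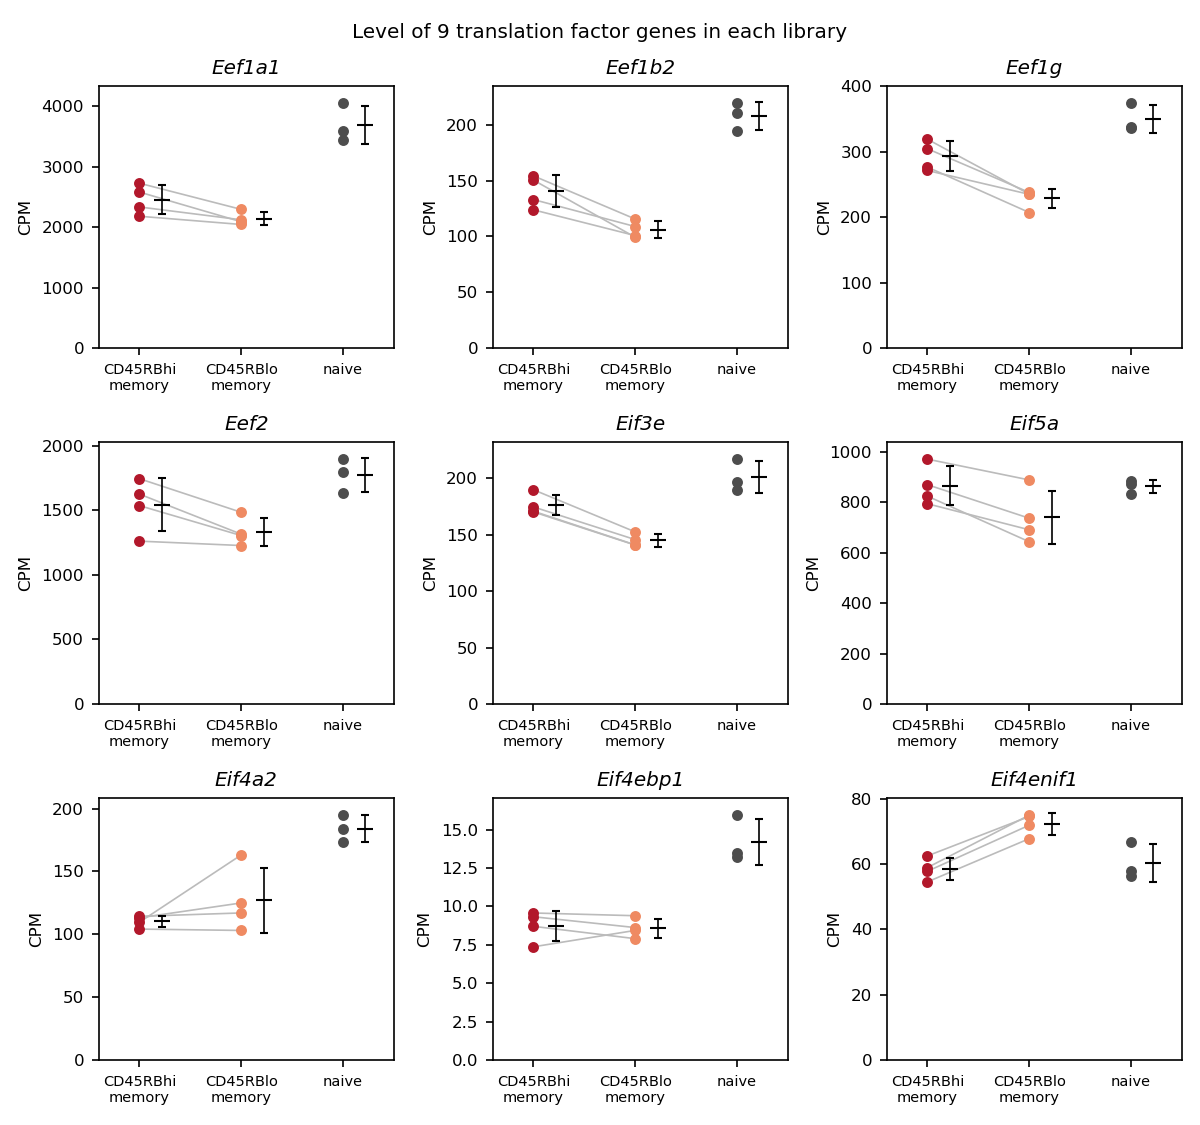
CPM of 9 genes in each library (points), with the mean ± SD beside each group, and grey lines joining CD45RBhi and CD45RBlo libraries of the same replicate number. For Eef1a1, Eef1b2 and Eef1g every naive library is above every memory library, while Eif4enif1 is highest in the CD45RBlo libraries.

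Among the cap-binding eIF4 group, 4 of the 11 tested rose and 2 fell in CD45RBhi (background 22.3% higher and 19.1% lower). In CD45RBlo 1 rose and 3 fell (22.4% and 19.8%). Eif4a2, an RNA helicase paralog of Eif4a1, was at 114, 104, 109.6 and 113 CPM in CD45RBhi, 117, 103, 163 and 125 CPM in CD45RBlo, and 183, 173 and 195 CPM in naive libraries. CD45RBlo library 3 stood nearest to naive, but no memory library reached it. The gene fell by 0.74 ± 0.127 (adjusted p = 0.000476) and 0.53 ± 0.127 (adjusted p = 0.00436). Eif4a1, the more abundant helicase, was at 309, 384, 340.4 and 361 CPM, 315, 327, 309 and 328 CPM, and 365, 375 and 399.6 CPM in the same order of groups. It fell in CD45RBlo (-0.25 ± 0.0795, adjusted p = 0.0229) and did not pass in CD45RBhi (-0.13 ± 0.0796, adjusted p = 0.231), where the groups overlapped. Eif4b, which stimulates the helicase, fell in both (-0.36 and -0.34, adjusted p = 0.0306 and 0.0401).

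Of the cap-binding proteins, Eif4e, Eif4e2 and Eif4e3 rose in CD45RBhi, and Eif4e3 rose in CD45RBlo. Eif4e, the main one, was at 134, 139, 132 and 128 CPM in CD45RBhi, 124, 135, 115 and 122 CPM in CD45RBlo, and 122, 102 and 110.1 CPM in naive libraries. CD45RBhi lay above naive and CD45RBlo overlapped with it. The rise was 0.26 ± 0.0851 in CD45RBhi (adjusted p = 0.0278), and the value in CD45RBlo was 0.15 ± 0.085 (adjusted p = 0.174). Eif4e2, a cap-binding relative linked to repression, rose by 0.26 in CD45RBhi (adjusted p = 0.0479), and Eif4e3 rose by 0.48 ± 0.175 in CD45RBhi (adjusted p = 0.0437) and 0.49 ± 0.175 in CD45RBlo (adjusted p = 0.0377). Eif4e3 shares 14.8% of its exon bases with another row on the same strand, Gm20696, whose counts ran from 13 to 625 and were highest in naive libraries. Eif4h, a helicase partner, rose in CD45RBhi (0.29 ± 0.0721, adjusted p = 0.00574). Eif4a3, a helicase of the exon junction complex, and the scaffolds Eif4g1, Eif4g2 and Eif4g3 did not pass, with values from -0.33 to 0.22. When libraries were scaled by total counts alone, the median of all rows moved from -0.01 to -0.155 in CD45RBhi and -0.143 in CD45RBlo, and no member was called higher in either comparison.

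Eif4ebp1, which holds eIF4E back until mTORC1 phosphorylates it, was at 7.37, 9.32, 8.70 and 9.57 CPM in CD45RBhi, 8.43, 8.62, 7.90 and 9.39 CPM in CD45RBlo, and 13.2, 13.5 and 15.9 CPM in naive libraries. All memory libraries were below all naive ones. It fell by 0.70 ± 0.142 (adjusted p = 0.0016) and 0.73 ± 0.142 (adjusted p = 0.0012). Eif4ebp2 was the more abundant family member, at 75.1, 42.5, 59.4 and 70.5 CPM, 75.8, 40.5, 54.4 and 50.6 CPM, and 58.3, 71.2 and 66.9 CPM. The groups overlapped, with replicate 2 the lowest of each memory group, and it did not pass (-0.08 and -0.24). Eif4enif1, which carries eIF4E into the nucleus, rose in CD45RBlo by 0.26 ± 0.0909 (adjusted p = 0.0351) and had a value of -0.05 in CD45RBhi (adjusted p = 0.716).

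The eIF2 group held the member with the largest change. Eif2s3y, the Y-linked copy of the eIF2 gamma subunit, was at 41.0, 36.9, 34.1 and 32.5 CPM in CD45RBhi, 39.8, 34.7, 44.6 and 27.8 CPM in CD45RBlo, and 70.3, 67.7 and 87.0 CPM in naive libraries. No memory library came near naive. It fell by 1.05 ± 0.153 (adjusted p = 0.000129) and 1.03 ± 0.153 (adjusted p = 0.00014). Its X-linked copy Eif2s3x, with which it shares much of its sequence, had values of -0.38 (adjusted p = 0.0756) and -0.30 (adjusted p = 0.158). Other Y-linked genes, picked after their values were seen, did not move as one: Kdm5d fell (-0.86 and -0.60, adjusted p = 0.00448 and 0.0316) while Ddx3y (0.47 and 0.61) and Uty (0.13 and 0.16) did not pass. Xist had at most 5 counts in a library.

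Eif2s1, the eIF2 alpha subunit that stress kinases phosphorylate, was at 150.3, 157, 153 and 158 CPM in CD45RBhi, 134, 139, 136 and 149.6 CPM in CD45RBlo, and 164, 142 and 165 CPM in naive libraries. Memory overlapped with naive, and its values were -0.02 and -0.17 (adjusted p = 0.842 and 0.0993). Eif2s2, the beta subunit, fell in CD45RBlo (-0.39 ± 0.113, adjusted p = 0.0133). Eif2a and Eif2d, which serve initiation outside the eIF2 route, did not pass (-0.28 and -0.29, and 0.28 and 0.23). Of the 5 eIF2B genes, which recharge eIF2, none passed in any comparison by edgeR. Their values against naive ran from -0.19 to 0.15 in CD45RBhi and from -0.34 to 0.07 in CD45RBlo. Among the 6 start codon genes Eif5 fell in CD45RBhi (-0.20, adjusted p = 0.0496) and Eif1a in CD45RBlo (-0.31, adjusted p = 0.0107). Eif1, the most abundant of them per length, did not pass (0.18 and 0.12), nor did Eif1ad, Eif1ax and Eif1b, with values from -0.21 to 0.16.

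In CD45RBhi, Eif3c (0.26, adjusted p = 0.0311) and Eif3l (0.23, adjusted p = 0.0276) rose and 0 of 14 fell (background 22.3% higher and 19.1% lower). In CD45RBlo none rose and 4 fell (background 22.4% higher and 19.8% lower). These were Eif3e (-0.47 ± 0.0756, adjusted p = 0.00026), Eif3m (-0.30, adjusted p = 0.00662), Eif3h (-0.27, adjusted p = 0.0133) and Eif3k (-0.24, adjusted p = 0.019). Eif3e, a subunit of the outer ring, was at 189.7, 171, 174 and 170 CPM in CD45RBhi, 152, 141, 146 and 141 CPM in CD45RBlo, and 217, 189.6 and 196 CPM in naive libraries. CD45RBlo lay below the other groups, which met at their edge. Eif6, which keeps the large subunit from joining too soon, was at 210.5, 257, 236 and 228 CPM, 211, 249, 197 and 208 CPM, and 192, 180.5 and 178 CPM. All memory libraries were above all naive ones, and the rise passed in CD45RBhi (0.34 ± 0.0947, adjusted p = 0.011) but not in CD45RBlo (0.24 ± 0.0945, adjusted p = 0.061). Eif5a was level with naive in CD45RBhi (0.00 ± 0.105) and at -0.22 ± 0.105 in CD45RBlo (adjusted p = 0.992 and 0.107). Its paralog Eif5a2 (0.39 and 0.46) and Eif5b, which joins the subunits (0.07 and -0.09), did not pass.

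CD45RBhi and CD45RBlo memory cells were then set against each other. Without pairing, 0 of the 55 genes passed (edgeR, adjusted p below 0.05; background 0.124%), 8 had an unadjusted p below 0.05 (background 9%) and DESeq2 called 3, all higher in CD45RBhi (background 1.13% of rows with an adjusted p). Of the 55, 6 (Eef1b2, Eef1g, Eif2s1, Eif3e, Eif3h and Eif3m) were wholly higher in CD45RBhi and 1 (Eif4enif1) wholly lower (background 2.68% and 2.31%). The replicate numbers paired the memory libraries in the data, though no label says so: the deviations of a CD45RBhi and a CD45RBlo library with 1 number from their group means had correlations of 0.191 to 0.452 across rows, a description over rows that share libraries. Pairs 1 and 2 had the highest values (0.425 and 0.452), against 0.208 and 0.191 for pairs 3 and 4. The log2 deviation of long minus short genes was 0.169 (CD45RBhi) and 0.0881 (CD45RBlo) in pair 1. It was -0.216 and -0.169 in pair 2, and -0.000108 to 0.0587 in pairs 3 and 4. The part of this length shift in the pairing was not tested. With the replicate number as a block, edgeR called 8 of the 55, where the background was 5.59% (2.52% higher and 3.08% lower): 7 were higher and 1 lower in CD45RBhi. By direction, 44 of the 55 had a positive log2 fold change (background 48.9%), and 20 were higher in 4 of 4 pairs (background 14.6%) against 2 lower in 4 of 4 (14.4%). The median was 0.09, against -0.01 for all 12637 rows in that fit.

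**Figure D4:**
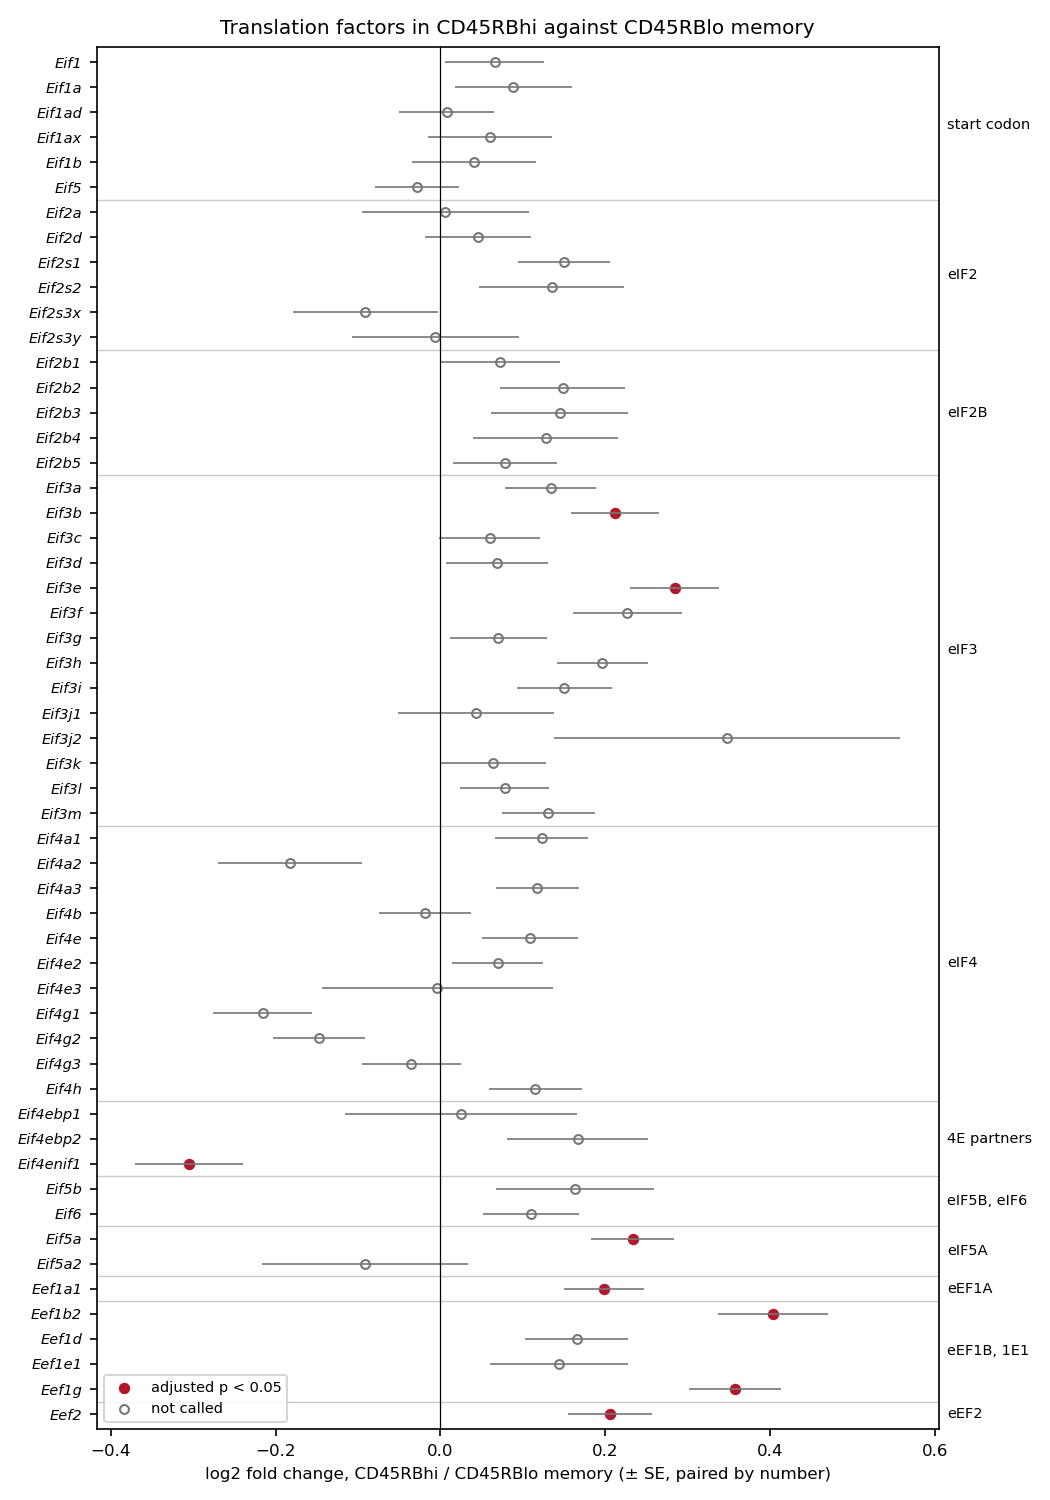
Log2 fold change ± SE of CD45RBhi over CD45RBlo memory for the 55 genes, with libraries paired by replicate number; filled points passed adjusted p below 0.05. All 14 Eif3 genes and all 6 Eef genes lie to the right of 0, and Eif4enif1 lies to the left at -0.31.

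Of the 8 genes called in the paired fit, 4 were elongation factors. There, Eef1b2 was higher in CD45RBhi by 0.40 ± 0.0667 (adjusted p = 0.0056) and Eef1g by 0.36 ± 0.0558 (adjusted p = 0.00412), both in 4 of 4 pairs. Eef1a1 was higher by 0.20 ± 0.0482 (adjusted p = 0.0341) and Eef2 by 0.21 ± 0.0513 (adjusted p = 0.0376), also in 4 of 4 pairs, although the groups overlapped. Eef1d (0.17, adjusted p = 0.151) and Eef1e1 (0.14, adjusted p = 0.347) had the same sign and did not pass. Without pairing the 4 called Eef genes had adjusted p of 0.168, 0.168, 0.491 and 0.555.

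The eIF3 genes were higher in CD45RBhi in sign for 14 of 14, with a median of 0.13, and also with median-of-ratios, library size and upper quartile scaling and with a length and GC correction. It was 13 of 14 without pair 2 or without pair 3. Eif3e (0.28 ± 0.0542, adjusted p = 0.0124) and Eif3b (0.21 ± 0.0534, adjusted p = 0.0383) passed. Eif3b, a core scaffold subunit, was at 408, 465, 400.1 and 443 CPM in CD45RBhi, against 374, 425, 321 and 368 CPM in CD45RBlo; the groups overlapped but each pair ran the same way. Eif3h (0.20, adjusted p = 0.0568) and Eif3f (0.23, adjusted p = 0.0656) did not pass. Eif5a, at 793, 969.8, 823 and 869 CPM in CD45RBhi and 689.973, 887, 643 and 736 CPM in CD45RBlo, was higher by 0.23 ± 0.0508 (adjusted p = 0.0212) in 4 of 4 pairs.

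Eif4enif1 alone among the members called ran the other way. It was at 54.6, 62.5, 59.0 and 57.8 CPM in CD45RBhi, against 67.8, 74.6, 75.02 and 71.9 CPM in CD45RBlo. The groups did not overlap, and the difference was -0.31 ± 0.0653 (adjusted p = 0.0198). Eif4g1, the scaffold of the cap complex, was lower in 4 of 4 pairs without passing (-0.22 ± 0.0602, adjusted p = 0.0567). None of the 11 cap-binding genes passed, and 5 of them had a positive sign. The summed erythroid and platelet markers given above were lower in CD45RBhi than in CD45RBlo, mostly through Car2 and CD45RBlo library 1. Car2 was at 0.597 to 1.25 CPM in CD45RBhi and 3.04 to 6.95 CPM in CD45RBlo. Hbb-bs was at 9.34 CPM in CD45RBlo library 1, 0.0484 to 0.552 CPM in the other CD45RBlo libraries and 0.0867 to 0.627 CPM in CD45RBhi. The part of these markers in the differences between memory groups was not tested. The 8 calls of the paired fit became 2 without pair 1 (background 2.71%), 9 without pair 2 (5.28%), 2 without pair 3 (1.32%) and 3 without pair 4 (2.36%), so the background fell too.

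Genes that act on or beside the factors were read from 8 lists. The background for each list count below is the share of all rows tested. It was 22.3% higher and 19.1% lower in CD45RBhi against naive, and 22.4% and 19.8% in CD45RBlo against naive. In the paired fit it was 2.52% higher and 3.08% lower in CD45RBhi. Eef2k, the kinase that inactivates eEF2, was at 10.7, 10.4, 12.8 and 14.3 CPM in CD45RBhi, 6.23, 8.96, 6.51 and 6.90 CPM in CD45RBlo, and 39.4, 40.1 and 31.0 CPM in naive libraries. The 3 groups did not overlap. It fell by 1.61 ± 0.162 (adjusted p = 5.15e-06) and 2.36 ± 0.167 (adjusted p = 1.67e-07), and in the paired fit its CD45RBhi level exceeded that of CD45RBlo by 0.75 ± 0.161 (adjusted p = 0.0198).

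Of the 13 genes that modify eIF5A or eEF2 (hypusine and diphthamide), 1 rose and 5 fell in CD45RBhi, and 1 rose and 6 fell in CD45RBlo. Dph5, a diphthamide methyltransferase, fell by 1.16 ± 0.129 and 1.63 ± 0.13 (adjusted p = 1.31e-05 and 5.45e-07). Srm, the spermidine synthase whose product feeds hypusine, fell by 0.99 ± 0.13 and 1.46 ± 0.131 (adjusted p = 5.55e-05 and 1.65e-06). Both were higher in CD45RBhi than in CD45RBlo in the paired fit (0.46 and 0.47, adjusted p = 0.0105 and 0.0067). Dph1 fell by 1.12 and 1.14 (adjusted p = 3.23e-05 and 2.51e-05), whereas Dph3 rose by 0.50 and 0.52 (adjusted p = 0.0029 and 0.00222).

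**Figure D5:**
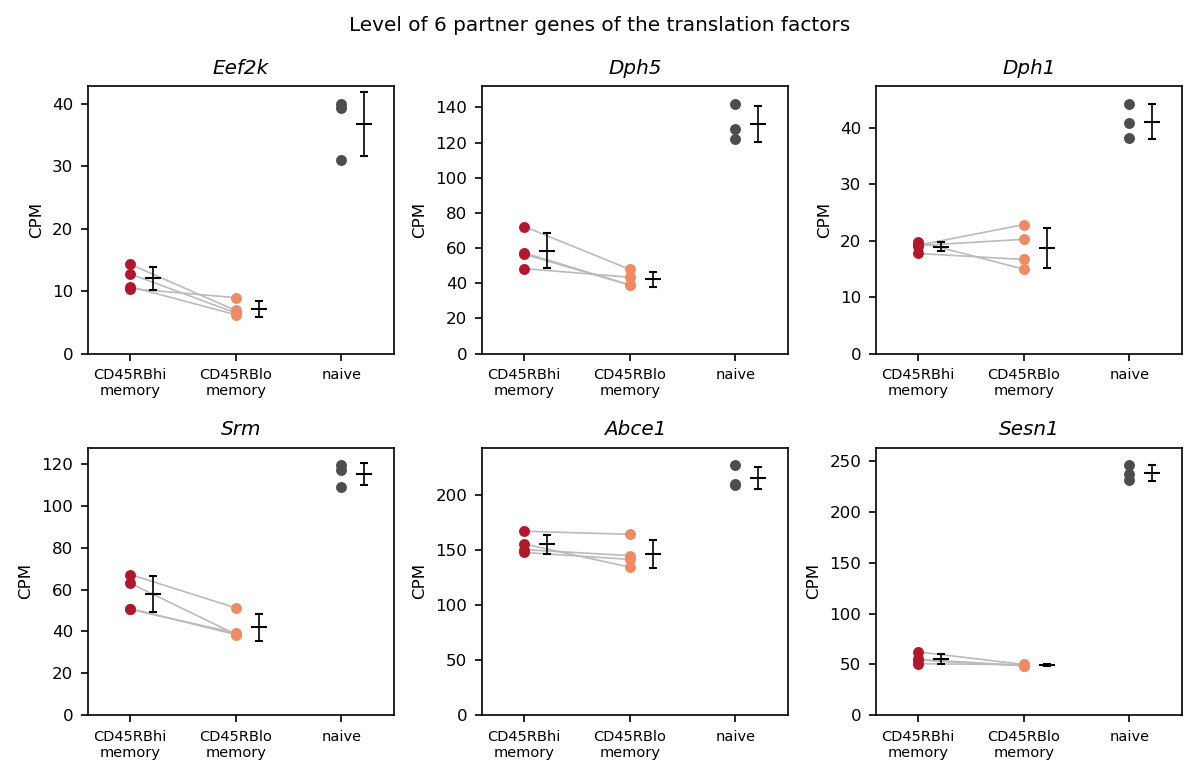
CPM of 6 genes that act on or beside the factors in each library (points), with the mean ± SD beside each group, and grey lines joining memory libraries of the same replicate number. Each is lower in every memory library than in every naive one, and Eef2k, at 12.1 CPM in CD45RBhi, 7.15 CPM in CD45RBlo and 36.8 CPM in naive libraries, separates all 3 groups.

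The eIF2 kinases and phosphatase regulators (13 genes) had 5 rise and 1 fall in CD45RBhi and 5 rise and 0 fall in CD45RBlo. Eif2ak1, the heme-regulated kinase, rose (0.39 and 0.35, adjusted p = 0.00152 and 0.00324), and Eif2ak3 (PERK) and Eif2ak4 (GCN2) were lower in CD45RBhi than in CD45RBlo in the paired fit (-0.39 and -0.40, adjusted p = 0.04 and 0.0327). Of 14 stress-response targets 9 were tested: 3 rose and 3 fell in CD45RBhi, and 2 rose and 3 fell in CD45RBlo. Asns, asparagine synthetase, rose, at 24.7 ± 3.93 CPM in CD45RBhi and 19.6 ± 2.76 CPM in CD45RBlo, against 0.584 ± 0.0127 CPM in naive libraries (5.38 and 5.05, adjusted p = 9.02e-10 and 1.55e-09). Shmt2, of mitochondrial serine metabolism, fell (-0.60 and -0.84).

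Of 28 genes from mTORC1 to translation, 6 rose and 9 fell in each comparison with naive cells. For this and the sets that follow, the background was 22.3% higher and 19.1% lower in CD45RBhi, and 22.4% and 19.8% in CD45RBlo. The background of higher calls in the paired fit was 2.52%. Sesn1, a stress-induced inhibitor of mTORC1, fell by 2.10 ± 0.082 and 2.28 ± 0.0825 (adjusted p = 8e-10 and 4.08e-10). Sesn2, another of its inhibitors, was not among the 28 and was counted with the stress-response targets above. It rose by 1.21 and 1.202 (adjusted p = 0.000235 and 0.000238). Of 23 tRNA synthetase genes 3 rose and 3 fell in CD45RBhi, and 3 rose and 9 fell in CD45RBlo. Of 14 termination and recycling genes 1 rose and 2 fell, and 1 rose and 3 fell; Abce1, the ribosome recycling factor, fell by 0.47 and 0.56 (adjusted p = 0.000592 and 0.000152). Of 16 genes tested around the poly(A)-binding proteins 4 rose and 4 fell, and 4 rose and 1 fell, with Btg2, which promotes deadenylation, up by 2.03 and 2.08. Of 17 specialised elongation and nascent chain genes 2 rose and 2 fell, and 1 rose and 6 fell. In the paired fit 5 of these were higher in CD45RBhi than in CD45RBlo, Naca and Tufm among them (0.25 and 0.29). Eef2k, given above, was 1 of the 17 and also 1 of the 28 mTORC1 genes, so its calls count in both lists. The 76 ribosomal protein genes, taken by symbol, had 1 rise and 31 fall in CD45RBhi, and 0 rise and 61 fall in CD45RBlo, with medians of -0.32 and -0.66, and in the paired fit 59 of them were higher in CD45RBhi (median 0.35).

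Copies that share sequence can divide reads, so Eif1a and Eif1ax, Eif2s3x and Eif2s3y, Eif3j1 and Eif3j2, and Eef1a1 with its pseudogenes are uncertain as single genes. The strand setting of the counting is not given in the sources used here, so genes overlapped on the opposite strand may hold reads of their neighbours. Eif3d, Eif3j1, Eif5b and Eif1ad share 43.3%, 19.0%, 16.8% and 15.3% of exon bases with such a row, though that of Eif3d had only 28 to 85 counts. Eif2a and Eif2d share only 1.18% and 1.06%. Their neighbours Serp1 and Rassf5 had 4531 to 6912 and 14112 to 21152 counts, against 406 to 732 and 1134 to 1925 in the genes themselves.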

How the data were processed

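RNA was measured in sorted CD8 T cells of 3 groups (4, 4 and 3 libraries). The authors deposited raw read counts per Ensembl gene, unnormalized. Per the submitters' processing notes, the tools were DESeq2, featureCounts and SAMtools, on builds given as GRCm38 and mm10. The sources used here do not give the aligner, the strand setting or the annotation release. RNA was extracted with a Qiagen micro kit, per the labels' protocols.

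Rows with low counts were removed with filterByExpr (minimum count 10), and TMM scaling and edgeR 4.0.16 quasi-likelihood F tests, two-sided with Benjamini-Hochberg adjustment (threshold 0.05), were fitted to all 11 libraries in R 4.3.3. Libraries held 18.02 to 23.2 M counts, so 3 counts correspond to 0.130 to 0.166 per 1 M of raw counts, before TMM scaling and for counting error only. Same-numbered memory libraries correlated at 0.191 to 0.452 across rows and other numbers at -0.331 to 0.0284, so the 8 memory libraries were also fitted with their number as a block; the pairing comes from the data, not the labels. Memory and naive libraries of 1 number correlated at -0.101 to 0.0565. Replicates were checked for duplicates: 0 of 15 pairs were identical, with chi-square per degree of freedom of 9.99 to 89.8. RPKM used exon lengths of GENCODE M21, which holds all 59 members. The fits were tested on simulated data. DESeq2 1.42.0, limma 3.58.1 and other scalings, filters and left-out libraries were tried. Members and lists were chosen with earlier results of these data known. The rule for named genes gave every library's value for 10 fixed members, those with the largest changes that passed, and up to 4 by p from each of the other lists. The comparison of Y-linked genes was added later. No value column of the table was left out.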

Additional observations from a re-analysis of the deposited data

Results flagged for a closer look

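Single libraries stood apart from the rest of their group for 5 of 110 groups of member levels checked, where chance gives about 1 in 20. Eef1g was lowest in CD45RBlo library 3 (206.875 CPM, against 235 to 238 in the others), and Eif1 was highest in CD45RBlo library 1 (469.247 CPM, against 386 to 392). Eif2b3 was highest in CD45RBhi library 2 (41.5032 CPM, against 29.0 to 31.0), Eif2s2 lowest in CD45RBhi library 4 (36.4424 CPM, against 45.5 to 46.5) and Eif3j2 lowest in CD45RBhi library 2 (3.03576 CPM, against 4.56 to 4.87).

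CD45RBhi and CD45RBlo memory differed for 8 genes in the paired edgeR fit, the same calls as given above. That fit held the 8 memory libraries and no naive library. In the unpaired fit of all 11 libraries 0 of the 55 genes passed. The log2 differences were 0.36 for Eef1g, 0.40 for Eef1b2, 0.28 for Eif3e, 0.23 for Eif5a, 0.20 for Eef1a1, 0.21 for Eef2, 0.21 for Eif3b and -0.31 for Eif4enif1.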

How the results depend on the processing

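The calls against naive cells that held in every alternative were 5 in CD45RBhi (Eef1a1, Eef1b2, Eif2s3y, Eif4a2 and Eif4ebp1) and 7 in CD45RBlo (the same with Eef1g and Eif3e); 0 of the 8 paired calls held in every one, and no called value changed sign. Against naive, calls in CD45RBhi were 15 and became 9 with no filter, 5 against a 1.2-fold change and 8 to 16 when a library was left out. Calls higher were 7 and became 0 by library size only, 3 by upper quartile, 3 with no filter, 2 at a mean of at least 5 CPM, 0 against 1.2-fold, 4 with the 2 groups alone, 4 with a length and GC correction, and 2 to 7 with a library left out. Calls lower were 8 and became 20, 13, 14 (5 CPM), 5 (1.2-fold) and 5 to 10. In CD45RBlo the 17 became 27 by library size, 7 against 1.2-fold and 11 to 19; the 2 higher became 0 by library size, upper quartile, 5 CPM and 1.2-fold, 1 with no filter, length and GC or the replicate block, and 0 to 2; the 15 lower became 27, 7 (1.2-fold) and 11 to 18. Library size alone cut the share of higher calls over all rows from 53.8% to 38.2% in CD45RBhi and from 53.0% to 39.5% in CD45RBlo. Between memory groups the 0 unpaired calls became 3 with DESeq2 (3 higher), and 8 (7 higher, 1 lower) with the replicate block in edgeR, limma-trend, and limma-trend with length and GC; 0 to 0 with a library left out. The 8 paired calls became 0 against 1.2-fold and 2 to 9 with a pair left out; the 7 higher 0 and 2 to 8; the 1 lower 2 by library size, 3 with no filter, 2 at 5 CPM, 2 with DESeq2, 0 against 1.2-fold and 0 to 1. With a length and GC correction the share of higher calls over all rows in the paired fit was 64.0%, against 45.0%. With the replicate block, calls against naive were 14 and 18. The cause of these shifts was not tested.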
